A study of Rattus norvegicus with 4 samples.

Results

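Midkine (Mdk), pleiotrophin (Ptn) and 3 of their receptors, Ptprz1, Lrp1 and Alk, were followed across the tissue regions of the rat trigeminal nerve. The genes were chosen by symbol and make up 5 of the 32623 genes in the count matrix, where each symbol stood once (Mdk, ENSRNOG00000017560; Ptn, ENSRNOG00000011946; Ptprz1, ENSRNOG00000006030; Lrp1, ENSRNOG00000025053; Alk, ENSRNOG00000008683). Spatial transcriptomes were made on 4 Visium capture areas, each a field of barcoded spots under a tissue section, and a spot covers several cells. Areas TN1, TN2 and TN3 each held the root, ganglion and proximal branches of 1 adult male wild-type Sprague-Dawley rat after compression of the trigeminal root, a model of trigeminal neuralgia (TN). The fourth area, the healthy control (HC, labelled a negative control), held tissue of 2 animals whose spots cannot be told apart. The methods describe HC as sham-operated, whereas the design text takes it from the uncompressed side of animals of the TN group, so TN against HC may set sides of the same animals against each other. All samples carry the tissue label trigeminal neuralgia and the genotype wild type. With 1 HC area, TN against HC cannot be told apart from a difference between capture areas, and the tests assume that HC areas would vary as the TN areas do.

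Midkine and pleiotrophin form a small family of heparin-binding growth factors that are abundant during development and return after injury in nerve and brain. Ptprz1 is a receptor-type tyrosine phosphatase and chondroitin sulfate proteoglycan of astrocytes and oligodendrocyte precursors, whose phosphatase activity falls when pleiotrophin binds it. Lrp1 is a large endocytic receptor that also binds midkine, and Alk is a receptor tyrosine kinase for which both factors have been described as ligands. Syndecans, glypican-2, integrins and nucleolin serve as co-receptors. In the study, pairs of ligand and receptor genes were used to describe contacts between ganglion and myelin.

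The 4 areas held 1256 to 2013 spots and 23546025 to 41335930 unique molecular identifiers (UMIs, 1 per captured transcript), with a median of 9487 to 30808 UMIs per spot. Mitochondrial genes took 11.6% (TN1), 7.81% (TN2), 7.50% (TN3) and 5.90% (HC) of the UMIs, lowest in HC, so that this share moves with TN against HC, and its part in the results below was not tested. A spot was given to a region by the marker list that led in it, and none of the 5 genes was on those lists. Of 6773 spots, 5937 were assigned. The ganglion (sensory neuron markers lead) had 154 to 672 spots per area, the nerve (peripheral myelin) 113 to 543, the central root (central myelin) 75 to 244 and the astrocyte region 132 to 230. Connective tissue had 64 to 420 spots in the TN areas but 4 in HC, so that its sums came from TN only. In its contrast with the nerve, the nerve entered with HC as well. Central neuron spots were frequent in TN1 (299) and TN2 (95) alone. Of the genes on the lists, the neuronal filament gene Prph stood at 3075 to 4453 CPM (counts per 1000000 UMIs of the sum) in the ganglion. In the nerve it stood at 1109 CPM (TN1), 1798 (TN2), 924 (TN3) and 2691 (HC), so that nerve spots hold neuronal RNA too, most in HC. The oligodendrocyte gene Mog stood at 595 to 839 CPM in the central root, 7.22 to 32.2 in the nerve and 214 to 525 in the astrocyte region, whose spots thus hold myelin too. Both helped to assign the spots, so their levels describe the regions and are no independent check of the names. Of the ganglion, nerve, central root and astrocyte spots, 138, 141, 82 and 91 led by less than 0.2 of a standard deviation and lie near the border of another region. Spots hold mixtures, so in every sum below fewer cells of a type and less RNA per cell cannot be told apart.

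Mdk was highest in connective tissue spots and lowest in neuron-rich tissue. The connective tissue spots also held peripheral myelin markers, at 64532 CPM (TN1), 19687 (TN2) and 24512 (TN3). Macrophage markers summed there to 1175 to 2731 CPM, so that these spots are mixtures too. In connective tissue the Mdk level was 212 CPM (TN1), 326 (TN2) and 405 (TN3). In the nerve it was 164 CPM (TN1), 218 (TN2), 274 (TN3) and 57.4 (HC). The HC nerve lay far below each TN nerve. In the ganglion the values were 59.7 CPM (TN1), 116 (TN2), 119 (TN3) and 38.9 (HC). In the central root they were 71.0 CPM (TN1), 102 (TN2), 162 (TN3) and 78.5 (HC), so that here TN and HC overlapped. In the astrocyte region Mdk stood at 95.9 CPM (TN1), 169 (TN2), 290 (TN3) and 99.3 (HC), again with HC inside the TN range. By mean over the areas with 20 or more spots, which differ between regions, the order ran from connective tissue through pituitary spots, nerve, astrocyte region, blood and bone, central root and ganglion to central neuron spots, and the area ranges of every pair of neighbours in this order overlapped. Connective tissue and central neuron spots entered with TN areas only, and over the TN areas alone the nerve mean was 219 ± 54.9 CPM and the ganglion mean 98.3 ± 33.5 CPM (SD, n = 3).

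Ptn followed another order, with connective tissue and ganglion at the top. In connective tissue its level was 970 CPM (TN1), 1296 (TN2) and 1453 (TN3). In the ganglion it was 973 CPM (TN1), 1105 (TN2), 1273 (TN3) and 976 (HC), and HC lay within the TN range. In the nerve Ptn stood at 773 CPM (TN1), 820 (TN2), 959 (TN3) and 654 (HC), the lowest of the 4. The central root held less, with 398 CPM (TN1), 468 (TN2), 509 (TN3) and 316 (HC). The astrocyte region was the most variable, at 472 CPM (TN1), 812 (TN2), 1387 (TN3) and 349 (HC). Between neighbours in the order of means, the area ranges separated only between blood and bone (611 ± 113 CPM, SD, n = 3) and central root (423 ± 84.6 CPM, SD, n = 4). The share of all genes with such a separation was not computed.

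The receptors were distributed differently from one another. Ptprz1 was highest in central tissue, with 97.5 CPM (TN1), 116 (TN2), 95.8 (TN3) and 83.7 (HC) in the astrocyte region. In the central root it was 59.6 CPM (TN1), 96.9 (TN2), 74.4 (TN3) and 60.6 (HC). Central neuron spots held 63.7 CPM (TN1) and 47.2 (TN2). The ganglion values were 33.4 CPM (TN1), 29.9 (TN2), 30.6 (TN3) and 23.5 (HC). The nerve was lowest, at 10.7 CPM (TN1), 17.0 (TN2), 18.7 (TN3) and 17.1 (HC). The astrocyte and central root spots did not overlap with the ganglion, nor the ganglion with the nerve. How many of all genes separate in this way between these regions was not computed, so the non-overlap is a description only.

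Lrp1 was highest in connective tissue, as Mdk was, at 320 CPM (TN1), 480 (TN2) and 492 (TN3). The ganglion was lowest, at 103 CPM (TN1), 172 (TN2), 157 (TN3) and 93.2 (HC). In the nerve Lrp1 stood at 285 CPM (TN1), 311 (TN2), 354 (TN3) and 207 (HC). The central root held 198 CPM (TN1), 274 (TN2), 241 (TN3) and 146 (HC). HC was the lowest of the 4 areas in both. For Ptprz1 and Lrp1, the area ranges of neighbouring regions in the order of means overlapped throughout. Alk was sparse everywhere, with 920 UMIs in all spots. Its ganglion level was 6.08 CPM (TN1), 10.1 (TN2), 7.02 (TN3) and 6.16 (HC). In the nerve it was 0.918 CPM (TN1), 5.93 (TN2), 5.30 (TN3) and 6.44 (HC), with TN1 far below the others. In the central root Alk was 0.497 CPM (TN1), 8.92 (TN2), 3.66 (TN3) and 2.33 (HC), and the value of TN1 rested on 1 UMI.

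**Figure D1:**
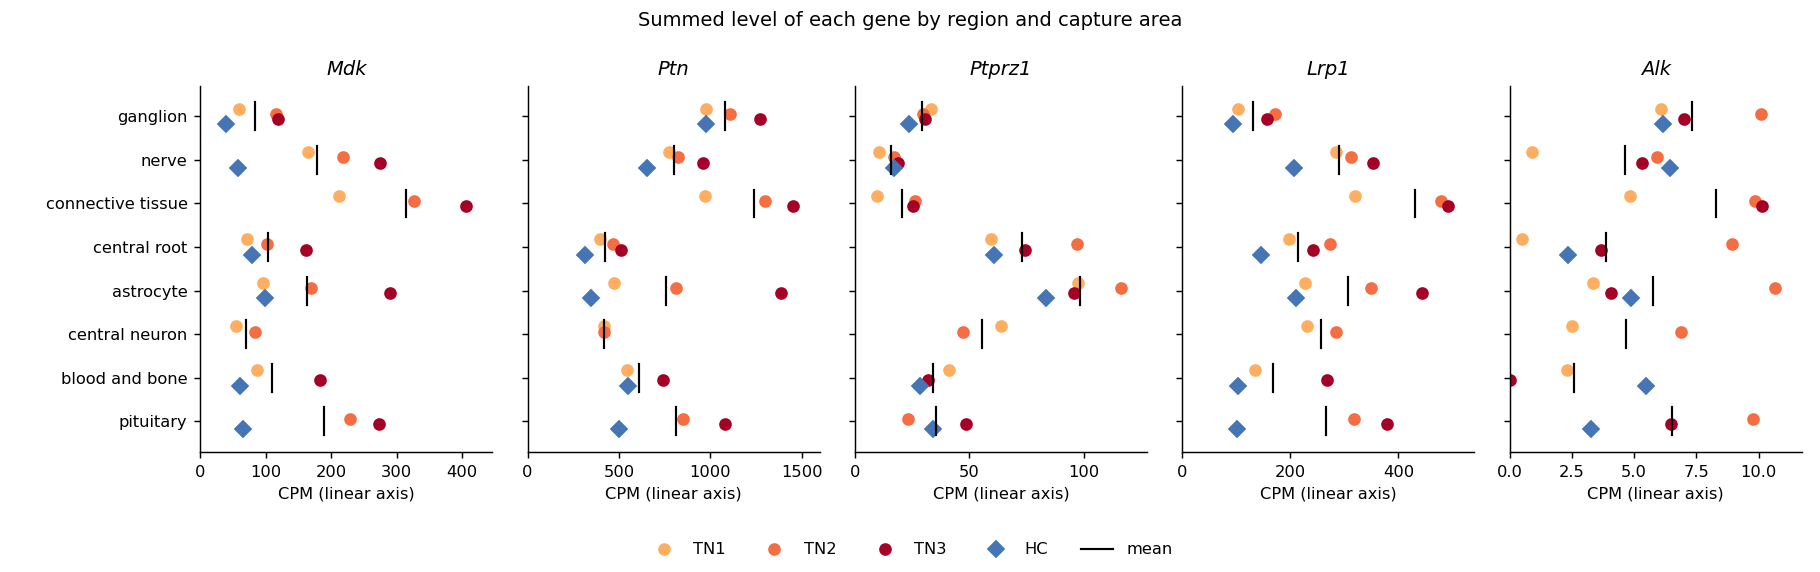
Level of each gene (x axis, CPM, linear, a separate scale for each gene) in 8 tissue regions (rows) and 4 capture areas (circles TN1, TN2 and TN3, diamond HC; black line, mean over areas with 20 or more spots). HC lies left of all TN points for Mdk in the nerve (57.4 against 164 to 274 CPM), and Ptprz1 is highest in astrocyte spots (83.7 to 116 CPM).

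Differences between regions were tested in 1 fit over 27 region by area sums, with the area as a block and 11484 genes tested. The threshold was a Benjamini-Hochberg adjusted p of 0.05 over all genes tested, in edgeR's quasi-likelihood test. Between nerve and ganglion, 3 of the 5 genes passed, 2 higher and 1 lower in the nerve, where 21.2% of all genes were called higher and 23.7% lower. Mdk was higher in the nerve by 1.15 ± 0.19 on the log2 scale (SE, adjusted p = 6.38e-05), and Lrp1 by 1.24 ± 0.15 (adjusted p = 3.65e-06). Both were higher in the nerve in each of the 4 areas, Mdk by ratios of 2.75 (TN1), 1.88 (TN2), 2.30 (TN3) and 1.48 (HC). Ptprz1 was lower in the nerve, with a log2 fold change of -0.80 ± 0.20 (SE, adjusted p = 0.00234). Ptn, at -0.37 ± 0.17 (adjusted p = 0.0846), and Alk, at -0.63 ± 0.31 (adjusted p = 0.101), did not pass. Fitted without the area as a block, the Mdk difference was 1.18 with an adjusted p of 0.0751 and was no longer called. Over the 13 alternatives its adjusted p ranged from 4.76e-07 to 0.0751.

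Between central root and ganglion, all 5 genes passed, 3 higher and 2 lower in the central root, with 21.9% of all genes called higher and 26.4% lower. Ptprz1 was higher in the central root by 1.46 ± 0.20 (log2, SE, adjusted p = 1.88e-06) and Lrp1 by 0.89 ± 0.15 (adjusted p = 4.62e-05). Ptn was lower there, at -1.21 ± 0.18 (log2, SE, adjusted p = 5.51e-06), and its ratio to the ganglion lay between 0.323 and 0.424 in the 4 areas. The Mdk difference of 0.59 ± 0.20 (log2, adjusted p = 0.0164) was less even: its ratio was 2.02 in HC, 1.19 in TN1 and 1.36 in TN3, but 0.879 in TN2. It was not called without HC (0.36, adjusted p = 0.101), without TN3 (0.56, adjusted p = 0.105), with K-means regions (0.52, adjusted p = 0.0503) or without the area block (0.49, adjusted p = 0.442), within a range of 0.00858 to 0.442 over the alternatives. The Alk difference of -1.12 ± 0.44 (log2, adjusted p = 0.0408) rested on 1 to 7 UMIs per central root area. It was lost in 7 of 13 alternatives, among them those without TN1 (-0.75, adjusted p = 0.183), TN3 (-1.22, adjusted p = 0.0607) or HC (-0.996, adjusted p = 0.146), in a range of 0.00788 to 0.191.

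Between central root and nerve, 3 of 5 genes passed, 1 higher and 2 lower in the central root, where 16.2% of all genes were called higher and 17.2% lower. Ptprz1 was higher in the central root by 2.26 ± 0.21 (log2, SE, adjusted p = 1.15e-08), and its adjusted p was at most 7.79e-06 in the alternatives. Ptn was lower there, at -0.84 ± 0.18 (log2, adjusted p = 5.86e-04). Mdk was lower there, at -0.56 ± 0.20 (log2, adjusted p = 0.0333), and this call was lost without TN1 (-0.31, adjusted p = 0.285), TN2 (-0.43, adjusted p = 0.248) or TN3 (-0.55, adjusted p = 0.152) and without the area block (-0.68, adjusted p = 0.335), in a range of 3.20e-04 to 0.335. In HC the Mdk order was the opposite, with 78.5 CPM in the central root and 57.4 in the nerve. Lrp1 did not pass (-0.34 ± 0.15, adjusted p = 0.0885).

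None of the 5 genes passed between astrocyte region and central root (0.287% of all genes called), between connective tissue and nerve (2.83%) or between central neuron region and central root (21.8%) in edgeR. At an unadjusted p under 0.05, the genes called in these comparisons were 1454, 1632 and 3954 of 11484. The largest astrocyte difference was that of Ptn, 0.67 ± 0.18 (log2, SE, adjusted p = 0.0899), which DESeq2 called (0.66, adjusted p = 0.0245) and which ranged from 2.38e-04 to 0.868 over the alternatives. Connective tissue stood above nerve by 0.53 ± 0.21 for Mdk (log2, adjusted p = 0.202) and by 0.26 ± 0.17 for Lrp1 (log2, adjusted p = 0.545).

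**Figure D2:**
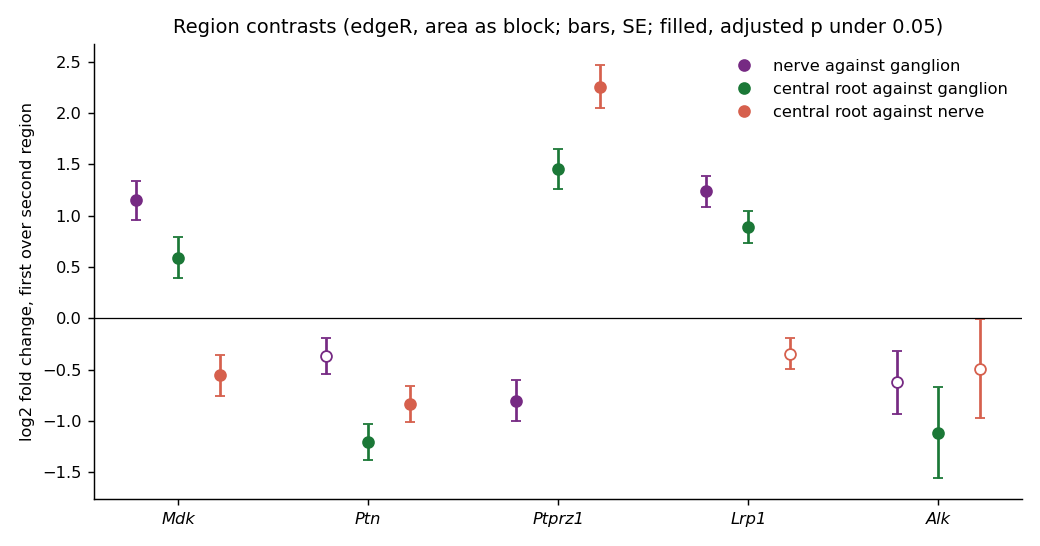
Log2 fold change between regions for each gene (y axis, the first named region over the second; points, edgeR estimates from 27 sums; bars, SE; filled, adjusted p under 0.05). Ptprz1 has the largest change, 2.26 higher in central root than in nerve, and Mdk and Lrp1 lie above 0 in nerve against ganglion (1.15 and 1.24).

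TN was set against HC within each region. In the nerve, Mdk was the only member called. Normalized by TMM, which scales each sum so that most genes keep their level, its level was 173 CPM (TN1), 204 (TN2), 274 (TN3) and 58.8 (HC). The TN mean was 217 ± 52.1 CPM (SD, n = 3), and no TN area came near HC. The log2 fold change was 1.89 ± 0.34 (SE), or 3.70-fold, with an adjusted p of 0.0474 in edgeR's quasi-likelihood test, where 0.678% of 11054 genes were called higher and 3.38% lower. The call lies just inside the threshold. It was lost without TN3 (1.72, adjusted p = 0.110) and with regions drawn by K-means clustering (2.45, adjusted p = 0.185), and over the 12 alternatives the adjusted p ranged from 5.05e-05 to 0.185 and the log2 fold change from 1.30 to 2.45.

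Other cell types differed between the TN and HC nerve in the same direction as Mdk or in the opposite one. The 7 connective tissue markers summed to 5350 to 6356 CPM in the TN nerve and 2550 in HC, and the 7 macrophage markers to 1034 to 1542 CPM against 331. The 14 sensory neuron markers summed to 1922 to 3032 CPM in TN and 5516 in HC. None of the connective tissue or macrophage markers was at 0 in any of these sums. With nerve spots kept only where connective tissue and macrophage scores were within the range of 95% of HC spots, a choice made after seeing the data, 86 spots of TN1, 96 of TN3 and 181 of HC remained and TN2 dropped out with 5. The Mdk log2 fold change was then 1.30 ± 0.28 (SE), from TN1 and TN3 against the 1 HC area. This fit had fewer degrees of freedom than the main test, and only the effect size is read. The part of the neuronal difference was not tested.

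The other members did not pass in the nerve. Lrp1, normalized by TMM, was 299 CPM (TN1), 292 (TN2), 354 (TN3) and 212 (HC), a log2 fold change of 0.57 ± 0.23 (SE, adjusted p = 0.209). Ptn was at 0.34 ± 0.24 (log2, adjusted p = 0.427), Ptprz1 at -0.17 ± 0.36 (log2, adjusted p = 0.796) and Alk at -0.68 ± 0.83 (log2, adjusted p = 0.646). All 3 TN areas lay above HC for Mdk, Lrp1 and Ptn and below it for Alk. Of all genes in this comparison, 34.4% had all TN areas above HC and 35.1% all below, so that a non-overlap of this kind was common.

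In the ganglion, edgeR called no member and none of 12150 genes (0%), with 1361 genes (11.2%) at an unadjusted p under 0.05, while DESeq2 called 158 genes but no member. Mdk normalized by TMM was 59.5 CPM (TN1), 114 (TN2), 119 (TN3) and 40.2 (HC). All TN areas were above HC, and TN1 stood closer to HC than to the other TN areas. The log2 fold change was 1.27 ± 0.40 (SE, adjusted p = 0.378 in edgeR). Without TN1 it was 1.53 ± 0.20 (adjusted p = 0.00153), and over the 12 alternatives the adjusted p ranged from 0.00153 to 0.783. Lrp1 differed by 0.56 ± 0.29 (log2, adjusted p = 0.494) and, without TN1, by 0.75 (adjusted p = 0.0433, range 0.0433 to 0.912). Ptprz1 was at 0.35 ± 0.18 (log2, adjusted p = 0.498), Alk at 0.26 ± 0.37 (log2, adjusted p = 0.812) and Ptn at 0.13 ± 0.19 (log2, adjusted p = 0.811). Mdk, Lrp1 and Ptprz1 (3 of 5) had all TN areas above HC, as had 28.6% of all genes. Connective tissue markers summed to 1156 to 2615 CPM in the TN ganglion and 1079 in HC, and macrophage markers to 713 to 1022 CPM against 238. In spots low in both, a choice made after seeing the data that removed TN2, the Mdk log2 fold change was 1.15 ± 0.39 (adjusted p = 0.395).

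In the central root, edgeR called no member and none of 9250 genes (0%), 207 (2.24%) had an unadjusted p under 0.05, and DESeq2 called 0. Mdk normalized by TMM was 71.0 CPM (TN1), 97.9 (TN2), 169 (TN3) and 81.1 (HC), so that HC lay inside the TN range (log2 fold change 0.46 ± 0.49, SE, adjusted p = 0.999). Ptn and Lrp1 had all TN areas above HC, as had 20% of all genes, at 0.49 ± 0.34 and 0.65 ± 0.34 (log2, SE, both adjusted p = 0.999). In the astrocyte region, a comparison added after seeing the region sizes, edgeR called none of 9959 genes (0%), 476 (4.78%) had an unadjusted p under 0.05, and DESeq2 called 2. Ptn normalized by TMM was 484 CPM (TN1), 785 (TN2), 1340 (TN3) and 373 (HC). The TN areas lay above HC, as for 23.3% of all genes, but differed among themselves by more than their mean differed from HC, and the log2 fold change of 1.22 ± 0.62 (SE) did not pass (adjusted p = 0.977). Macrophage markers in this region summed to 896 CPM (TN1), 2052 (TN2), 3668 (TN3) and 957 (HC), an order of the areas that Ptn and Mdk shared within TN, and their part in it was not tested.

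Summed over all spots, where the tissue makeup of the areas differed, Mdk normalized by TMM was 83.1 CPM (TN1), 213 (TN2), 275 (TN3) and 52.7 (HC). All TN areas were above HC, as for 28.7% of all genes. The log2 fold change of 1.85 ± 0.74 (SE) did not pass (adjusted p = 0.556), but did without TN1 (2.21, adjusted p = 0.0147, in a range of 0.0147 to 0.995). EdgeR called none of 14902 genes (0%), 1271 (8.53%) had an unadjusted p under 0.05, and DESeq2 called 144.

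Whether the TN against HC contrast differed between regions was tested as an interaction with the area as a block. Mdk differed by 0.81 ± 0.34 more in the ganglion than in the central root (log2, SE, adjusted p = 0.921). Between nerve and central root, a comparison added after seeing the data, the difference for Mdk was 1.53 ± 0.40 (log2, SE, adjusted p = 0.381). Neither passed, and edgeR called 0 genes in both (0%), with 531 (5.01%) and 1092 (11.2%) at an unadjusted p under 0.05 and 2 and 3 called by DESeq2. Without a filter on low counts the nerve interaction of Mdk had an adjusted p of 0.0397, in a range of 0.0397 to 0.853 over the alternatives. The interactions of Ptn, Ptprz1 and Lrp1 lay between -0.44 and 0.09 on the log2 scale. Those of Alk were -0.22 ± 1.04 for the ganglion and -1.42 ± 0.93 for the nerve (log2, SE, adjusted p = 0.985 and 0.584), the latter from -1.70 to -0.59 over the alternatives.

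**Figure D3:**
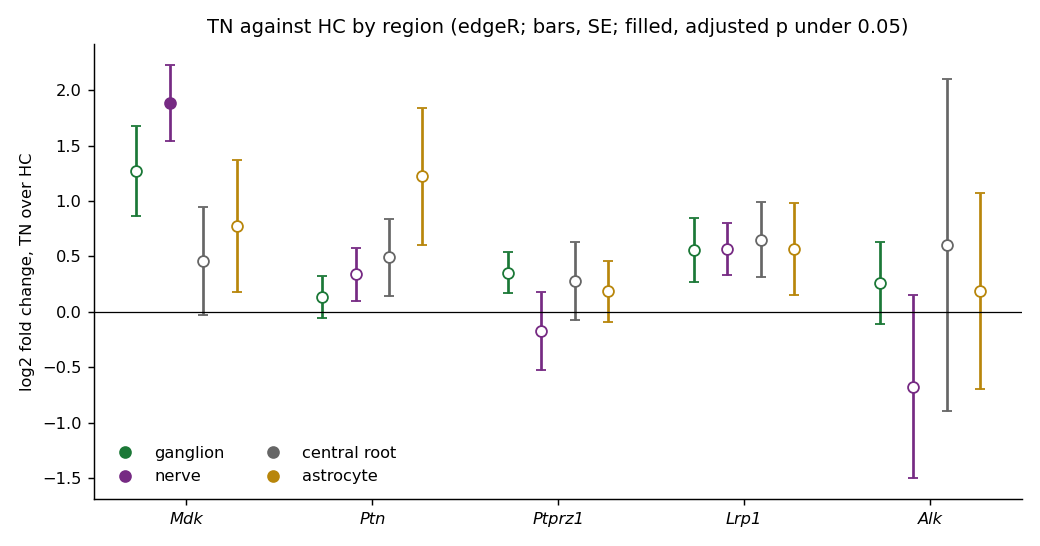
Log2 fold change of TN over HC for each gene in 4 regions (y axis; points, edgeR estimates from 3 TN areas and 1 HC area; bars, SE; filled, adjusted p under 0.05). Mdk in the nerve, at 1.89, is the only filled point, and the 4 values of Lrp1 lie between 0.56 and 0.65.

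Within the TN ganglion, spots were split by the summed level of 12 nerve injury genes, such as Atf3 and Sprr1a, which sensory neurons turn on after axon damage. These genes were not confined to the ganglion. They summed to 684 CPM (TN1), 1544 (TN2) and 639 (TN3) there and to 202, 1157 and 788 CPM in connective tissue spots. A spot above the cut is thus in a range of a score and does not mark injured neurons as such. The cut was the level that 95% of HC ganglion spots stayed below, 195 CPM, and 94 of the 596 TN ganglion spots lay within 0.5 of it on the log2 scale. All 154 ganglion spots of TN2 lay above it, so that the test used TN1 (168 spots above, 83 below) and TN3 (170 above, 21 below) with 1 residual degree of freedom. Mdk was 61.3 CPM in the injury-high spots of TN1 against 55.2 in the other spots, and 122 against 91.0 CPM in TN3. Depth and other cell types differed with the split in TN1, with a median of 45247.5 UMIs per spot above the cut against 18685 below, macrophage markers at 912 against 381 CPM and peripheral myelin markers at 13557 against 7278 CPM. In TN3 the same values were 37983 against 31325 UMIs, 723 against 599 CPM and 15076 against 15657 CPM, and their part in the result was not tested. The Mdk log2 fold change of 0.29 ± 0.14 (SE) did not pass (adjusted p = 0.558), and edgeR called 0.662% of 10576 genes. No other member passed: Ptprz1 was at 0.38 ± 0.19, Ptn at 0.15 ± 0.12, Lrp1 at 0.14 ± 0.15 and Alk at -0.48 ± 0.38 on the log2 scale. With each TN ganglion split at its own median, a choice made after seeing the data, Mdk was 66.2 CPM in the upper against 51.0 in the lower part of TN1, 112 against 120 in TN2 and 134 against 105 in TN3 (log2 fold change 0.22 ± 0.09, adjusted p = 0.163). TN2 went the other way. Median depth differed between the parts, at 45718 UMIs per spot in the upper against 31093.5 in the lower part of TN1, 44379 against 52640 in TN2 and 35427 against 40334.5 in TN3.

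Shares of spots with at least 1 UMI were compared after each spot had been thinned to 2000 UMIs, and their intervals cover counting error only. In the nerve, 27.8% of TN1, 34.5% of TN2 and 38.4% of TN3 spots held an Mdk UMI, against 8.96% of HC spots (exact 95% interval 5.39 to 13.8%). Unthinned, the shares were 70.5%, 99.1%, 91.3% and 60.7%. Blood and bone spots served as the reference for RNA that spread from other cells, although bone is not known to lack midkine, and there the thinned shares were 15.4% in TN1, 24.6% in TN3 and 9.59% in HC. The HC nerve was thus at the reference of its own area. The nerve of TN3 (interval 34.2 to 42.7%) was above its reference (15.1 to 36.5%) by the point value, as was that of TN1 (23.2 to 32.8% against 5.86 to 30.5% from 39 spots), but in both the intervals overlapped. In the ganglion the Mdk shares were 14.7% (TN1), 18.2% (TN2), 21.8% (TN3) and 7.44% (HC) (unthinned 78.9%, 99.4%, 93.7% and 73.2%). None was above the reference of its own area where there was one. Connective tissue markers, however, summed in blood and bone spots to 2524 CPM (TN1), 5676 (TN3) and 3611 (HC). In the ganglion of these areas they summed to 1156, 2428 and 1079 CPM, and in the nerve to 6356, 5350 and 2550. Mdk was highest in connective tissue, so this reference is a poor one for Mdk. The Mdk shares of the ganglion and of the nerve, in TN as in HC, were therefore read neither as expression nor as background. Median depth was 34208 to 49140.5 UMIs per spot in the ganglion, 8208 to 33120 in the nerve and 7015, 9803 and 4365 in the blood and bone spots of HC, TN1 and TN3.

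For Ptprz1 the thinned share was 15.0 to 21.3% in astrocyte spots and 11.6 to 23.0% in the central root, above the 4.80 to 7.69% of blood and bone by the point values (unthinned 42.9 to 62.9%, 29.9 to 54.7% and 19.5 to 38.5%). In HC the blood and bone interval (2.95 to 7.31%) lay below those of both regions. In TN1 (1.62 to 20.9% from 39 spots) and TN3 (1.60 to 14.2%) it overlapped with both. The nerve shares were 1.14 to 4.42% (unthinned 8.50 to 43.4%) and the ganglion shares 4.79 to 5.98% (unthinned 52.8 to 69.5%). For this gene blood and bone spots are a poor reference, since astrocyte markers summed there to 783 CPM (TN1), 2197 (TN3) and 1953 (HC), against 226 to 683 in the nerve and 280 to 528 in the ganglion. The shares of nerve and ganglion were therefore read neither as expression nor as background. At this depth Lrp1 was seen in 39.5% of nerve spots in TN1, 50.4% in TN2, 50.5% in TN3 and, lowest, 33.3% in HC. Unthinned, the shares were 87.8%, 100%, 96.5% and 95%. By the point values the thinned shares lay above the 17.9 to 31.9% of blood and bone. Those spots held peripheral myelin markers, at 24281 CPM (TN1), 22399 (TN3) and 11683 (HC), beside the connective tissue markers given above. Lrp1 was highest in connective tissue, so they are a poor reference for Lrp1 too. Its nerve shares were therefore read neither as expression nor as background. Alk was seen in 0.893% of HC, 1.2% of TN1, 1.95% of TN2 and 1.06% of TN3 ganglion spots (unthinned 17.8 to 32.5%), where blood and bone had 0 to 2.56% with overlapping intervals, and in none of the 352 thinned nerve spots of TN1, which by the limit of 3 counts allows a share of up to 0.852% (exact 95% upper bound 1.04%) at this depth. Unthinned, 3 of the 353 spots held one.

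Mdk with Lrp1 in the nerve, and Ptn with Ptprz1 in the central root, shared spots about as often as their separate shares would give. In the nerve, 9.66% of TN1, 15.0% of TN2 and 20.8% of TN3 spots held UMIs of both Mdk and Lrp1, against 2.99% in HC. The products of the separate shares were 11%, 17.4%, 19.4% and 2.99%, each within the exact 95% interval of the observed share. Mdk and Ptprz1 were seen together in 0.298% of HC ganglion spots and, in TN1, TN2 and TN3, in 0.398%, 0.649% and 2.13%, which is 1 to 4 spots in each area. With so few spots, a difference between TN and HC was not detectable for this pair at this depth. Mdk with Alk was seen in 1 ganglion spot of TN1, in 1 of TN2 and in none of TN3 or of the 672 spots of HC. Before thinning, the median depth of ganglion spots was 34208 (HC) to 49140.5 UMIs (TN2), and each of these genes was seen in more spots. The thinned counts of both pairs therefore do not show how often the genes share a spot at full depth. Ptn and Ptprz1 shared 4.78 to 5.19% of ganglion spots and 5.79 to 13.5% of central root spots in the 4 areas, the latter against products of 5.67 to 13.3%.

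**Figure D4:**
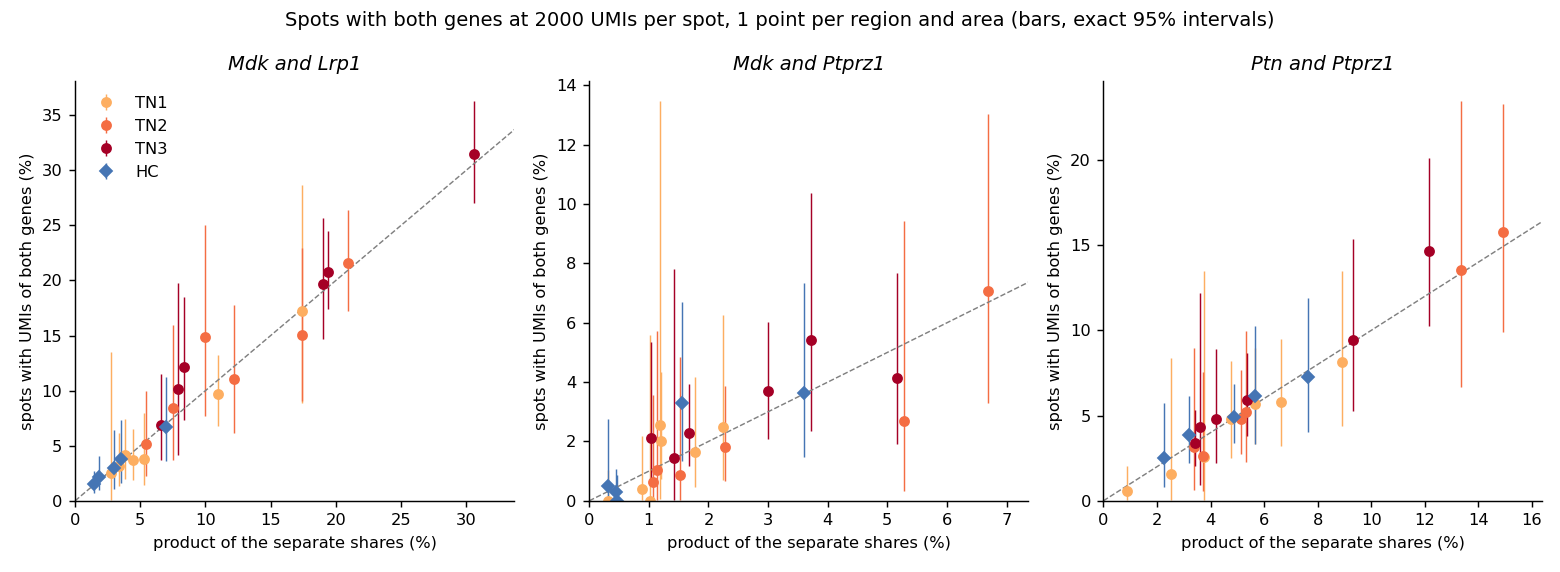
Share of spots with UMIs of both genes (y axis, %) against the product of the separate shares (x axis, %) after thinning to 2000 UMIs, 1 point per region and area (circles TN, diamonds HC; bars, exact 95% intervals; dashed line, equality). The nerve points of Mdk with Lrp1 and the central root points of Ptn with Ptprz1 lie near the line. Those of Mdk with Ptprz1 in the ganglion rest on few spots. Mdk with Lrp1 reaches 31.5% in connective tissue of TN3, a region with 4 spots and no point in HC. In the other regions, HC reaches 6.74% at most.

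Across the 27 sums, which share 4 libraries and differ in depth, Mdk and Lrp1 varied together on the log2(CPM + 5) scale (Pearson r = 0.858, a description without a test). For Mdk and Ptn r was 0.605, for Mdk and Ptprz1 -0.155, and for Ptn and Ptprz1 -0.437. Of 5936 genes of 20 CPM or more, those most like Mdk included H2afv (r = 0.972), Ier5 (0.958), Smad3 (0.954) and Cdc42ep4 (0.952). Lrp1 was not among the 5 genes most like Mdk, and how many genes reached its r with Mdk was not counted. Those most like Ptn were Lmo4 (r = 0.931), S1pr3 (0.914), Rbbp7 (0.914), Nek6 (0.908) and Surf4 (0.897). For Ptprz1 they were Glud1 (r = 0.952), Slc15a2 (0.917), Mlc1 (0.913), Pla2g7 (0.912) and Ndrg2 (0.910). Mlc1, a membrane protein of astrocyte end-feet, was among the markers that defined the astrocyte region. For Lrp1 they were AABR07002683.1 (r = 0.883), Ptch1 (0.881), Serpine2 (0.880), Ier5 (0.868) and Ifi30 (0.862).

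**Figure D5:**
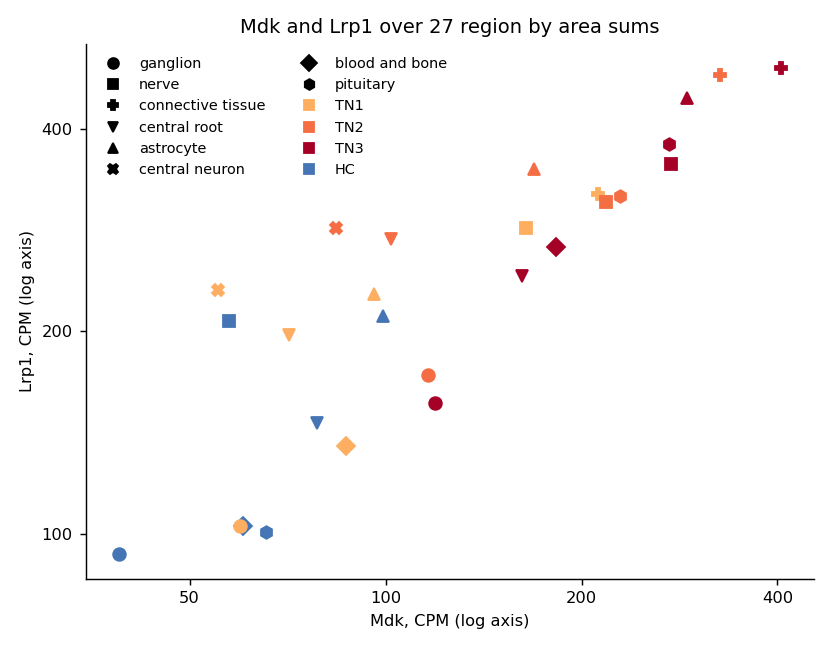
Mdk (x axis, CPM, log scale) against Lrp1 (y axis, CPM, log scale) in 27 region by area sums (shape, region; colour, area). The HC sums sit at 38.9 to 99.3 CPM of Mdk, and the connective tissue sums of TN2 and TN3 are at the top right (326 and 405 CPM of Mdk).

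The wider pathway was described by 3 lists. The co-receptor list held 13 genes of syndecans, glypican-2, integrins, nucleolin, Notch2 and Nrp1. None of its tested genes passed between TN and HC in the ganglion (11 tested), nerve (10) or central root (8). In the ganglion 9 of the 11 had a positive log2 fold change, with a median of 0.44 beside 0.03 for all genes, and the largest were Sdc1 (1.28 ± 0.43, SE) and the integrin subunit Itgav (1.13 ± 0.68). In the nerve 9 of 10 were positive (median 0.48 beside 0.05), led by the laminin receptor subunit Itga6 (0.93 ± 0.25, adjusted p = 0.0961) and Sdc2 (0.89 ± 0.29, adjusted p = 0.147). In the central root 8 of 8 were positive (median 0.40 beside 0.05), with Sdc2 at 0.80 ± 0.43 and Sdc1 at 0.70 ± 0.995.

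Between regions, 4 of 9 co-receptors were higher in nerve than ganglion, beside 21.2% of all genes: Itga6 by 1.57 ± 0.19, Notch2 by 1.12 ± 0.17, Sdc4 by 0.55 ± 0.12 and Sdc3 by 0.40 ± 0.12 (log2, SE). Sdc1 was lower there (-0.75 ± 0.24), as were 23.7% of all genes. Between central root and nerve none was higher and 5 were lower, beside 16.2% and 17.2% of all genes: Itga6 (-2.07 ± 0.21), Sdc3 (-1.09 ± 0.13), Itgb1 (-0.86 ± 0.12), Notch2 (-0.70 ± 0.20) and Sdc2 (-0.60 ± 0.21). Against the ganglion, 4 of 9 were lower in the central root, beside 26.4% of all genes, namely Sdc1 (-1.48 ± 0.34), Itgb1 (-0.75 ± 0.12), Sdc3 (-0.69 ± 0.13) and Itga6 (-0.50 ± 0.20). Sdc3 was higher (0.59 ± 0.16) and Itgb1 lower (-0.69 ± 0.16) in central neuron spots than in the central root. These were 1 higher and 1 lower of 9 tested, a count near the 21.8% of all genes called in either direction. Sdc4 was higher in astrocyte spots than in the central root (0.66 ± 0.13, adjusted p = 0.0191 in edgeR), 1 of 9 beside 0.287% of all genes. Sdc2 was higher in connective tissue than in nerve (0.94 ± 0.20, adjusted p = 0.00937 in edgeR), 1 of 9 beside 2.83% of all genes.

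The list of relatives and other ligands held 9 genes, of which Lrp1b was not found by symbol. None passed between TN and HC in the ganglion (4 tested), nerve (3) or central root (2). Alkal2, a secreted activator of Alk, had the largest values, 2.80 ± 0.94 in the ganglion (log2, SE, adjusted p = 0.399) and 2.21 ± 1.48 in the nerve (adjusted p = 0.397). The lipoprotein receptor gene Lrp8 was at 0.34 ± 0.22 and -0.61 ± 0.40 in the same comparisons, and at 0.67 ± 0.41 in the central root beside -0.24 ± 0.33 for Lrpap1. By region, Alkal2 (-1.51 ± 0.36), Lrp8 (-1.08 ± 0.23) and Lrpap1, the chaperone of Lrp1 (-0.40 ± 0.13), were lower in nerve than in ganglion, 3 of 4 tested beside 23.7% of all genes. Alkal2 (-1.78 ± 0.56) and Lrpap1 (-0.74 ± 0.13) were lower in central root than in ganglion (2 of 4, beside 26.4% of all genes), and Lrp8 was higher in central root than in nerve (1.39 ± 0.28), 1 of 4 beside 16.2%.

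The list of Ptprz1 partners and substrates held 14 genes, among them cell adhesion molecules, tenascins and beta-catenin. None passed between TN and HC in the ganglion (14 tested), nerve (13) or central root (11). The largest values were those of the beta-catenin gene Ctnnb1, 1.46 ± 0.62 in the ganglion and 2.77 ± 1.24 in the nerve (log2, SE), and of the adhesion molecule Chl1, 0.83 ± 0.56 and 2.06 ± 0.89. In the central root they were Tnc (0.86 ± 0.53) and Tnr (0.52 ± 0.87), the genes of tenascin C and tenascin R. In nerve against ganglion, 3 of 14 were higher and 7 lower, beside 21.2% and 23.7% of all genes, so that the count of higher genes is near the background. Those higher were Git1 (1.04 ± 0.14), Ctnnb1 (0.96 ± 0.39) and the kinase gene Fyn (0.33 ± 0.12). Those lower were Tnr (-1.49 ± 0.59), L1cam (-1.33 ± 0.24), Cntn1 (-1.22 ± 0.19), Magi1 (-1.19 ± 0.27), Tnc (-0.90 ± 0.23), Arhgap35 (-0.65 ± 0.16) and Nrcam (-0.36 ± 0.14).

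In central root against ganglion, 4 of 14 partners were higher, namely Ncam1 (2.51 ± 0.24), Ctnnb1 (2.44 ± 0.42), Nfasc (0.60 ± 0.18) and Fyn (0.44 ± 0.12), and 6 were lower, beside 21.9% and 26.4% of all genes. The 6 were L1cam (-2.47 ± 0.27), Tnc (-1.70 ± 0.27), Magi1 (-1.55 ± 0.37), Magi3 (-1.47 ± 0.37), Nrcam (-0.62 ± 0.15) and Arhgap35 (-0.55 ± 0.17). In central root against nerve, 4 of 14 were higher and 3 lower, beside 16.2% and 17.2% of all genes, the latter close to the count. Those higher were Ncam1 (2.74 ± 0.27), Tnr (2.66 ± 0.68), Ctnnb1 (1.48 ± 0.43) and Cntn1, a neuronal contactin that binds Ptprz1 (1.08 ± 0.23), and L1cam (-1.14 ± 0.27), Tnc (-0.80 ± 0.28) and Git1 (-0.75 ± 0.17) were lower. In central neuron spots against the central root, Magi1 (1.39 ± 0.47), L1cam (0.97 ± 0.32), Nrcam (0.81 ± 0.19) and Arhgap35 (0.69 ± 0.20) were higher and Ncam1 lower (-0.88 ± 0.30). These were 4 higher and 1 lower of 14, beside 21.8% of all genes called in either direction. In connective tissue against nerve Nfasc was lower (-0.98 ± 0.21), 1 of 14 beside 2.83% of all genes called in either direction.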

How the data were processed

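For 4 Visium capture areas the authors deposited 1 matrix of whole-number UMI counts, not normalized, which Space Ranger 1.2.0 wrote according to its header. The area is the number after each barcode, 1 to 3 for TN and 4 for HC. Build and annotation are not stated in the sources used here, nor is any equalisation of depth between areas. Of the barcodes, 2337 occur in more than 1 area, as areas share a barcode list.

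For each spot, log2(CPM + 50) of marker genes was z-scored and averaged over 8 lists, and the spot took the list with the highest mean if it reached 0.25 and led by 0.1. UMIs were summed over spots per region and area (at least 20 spots) and compared by the quasi-likelihood test of edgeR 4.0.16 in R 4.3.3, with TMM scaling and filterByExpr, with Benjamini-Hochberg adjustment over all genes tested. TN against HC left 2 residual degrees of freedom and the region fit 16. SE is the log2 fold change over the root of its F statistic. The study tested spots, which share an area and were not used as replicates here. P-values of TN against HC within a region measure the spread between areas, which for TN are animals. Those of fits with the area as a block measure the spread of the sums left after area and region are fitted. The sums of 1 area share a library, so this is not the spread between animals. DESeq2 1.42.0 and K-means regions (10 clusters, 30 principal components of SCTransform residuals, sctransform 0.4.2) were alternatives, beside other filters, margins and scalings and leaving out each area. The fits were also run on simulated counts without an area effect and with the same spread in TN and HC. Such runs cannot test the sharing of a library or the single HC area, and no conclusion is drawn from them.

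The members, lists and tests were chosen with earlier results of these data known. Named genes are the 5 members, list genes that passed the threshold or, where none did, the 2 largest changes of a list, and the 5 genes most correlated with a member. Of the genes this rule names, 1 is not reported here. Shares used spots thinned to 2000 UMIs, leaving out 0 to 14 spots per region and area, with exact binomial intervals.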

Additional observations from a re-analysis of the deposited data

Results flagged for a closer look

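Between 4 regions, 30 contrasts of a member between a pair of regions were looked at for a difference that went 1 way in all TN areas and the other way in HC. For Mdk, nerve against central root, the log2 ratio was -0.45 in HC (57.4 against 78.5 CPM) and between 0.76 and 1.21 in TN. Of 10526 genes with UMIs in all 8 sums, 10.8% had such a pattern. The interaction test gave 1.53 ± 0.40 (log2, SE), an unadjusted p of 0.00350 and an adjusted p of 0.381 in edgeR, so that it failed the correction. Sensory neuron markers summed to 2152 CPM (TN1), 3032 (TN2), 1922 (TN3) and 5516 (HC) in the nerve, and their part was not tested. For Alk, ganglion against nerve, the log2 ratio was -0.064 in HC and between 0.40 and 2.73 in TN, a pattern that 11% of 12416 genes showed. The Alk ratios rested on 3 to 43 UMIs in the TN nerve, and this difference was not tested. HC is 1 area in both.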

How the results depend on the processing

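Of 798 alternative values of the members' log2 fold changes, 751 kept their direction and side of the threshold, 18 lost and 12 gained the threshold, and 17 turned direction. None of the 12 called values, 11 between regions and that of Mdk between TN and HC in the nerve, turned direction. With HC as 1 area, depth and the few TN areas limit every TN against HC value, and the cause of the changes below was not tested. K-means regions matched 96.2% of ganglion and 77.6% of nerve spots but 26.3% of astrocyte, 16.6% of connective tissue and 0% of pituitary spots.

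Counts of genes called moved as follows. TN against HC in the ganglion gave 0, but 158 with DESeq2, 44 without a filter on low counts, 3 with a lead of 0.3, 45 in spots low in connective tissue and macrophage markers, and 0 to 644 leaving out 1 area, highest without TN1. In the nerve the 449 became 805 with DESeq2, 864 without the filter, 0 with K-means regions, 233 in the low-marker spots and 0 (without TN3) to 2476 (without TN1) leaving out 1 area. The central root (0) gave 0 to 149 leaving out 1 area, the astrocyte region 2 with DESeq2, and all spots 144 with DESeq2 and 0 to 2171 leaving out 1 area. The interaction of ganglion and central root (0) gave 2 with DESeq2, 99 without the filter, 3 with K-means and 0 to 22 leaving out 1 area, and that of nerve and central root (0) gave 3, 251 without the filter and 0 to 72. Leaving out 1 area gave 3055 to 5374 genes for nerve against ganglion (5157), 4299 to 5549 for central root against ganglion (5550) and 2652 to 3898 for central root against nerve (3836). Astrocyte region against central root (33) gave 148 with DESeq2, 189 without the filter, 56 without mitochondrial, ribosomal protein and hemoglobin genes, 168 with a lead of 0.3, 894 with K-means and 5 to 50 leaving out 1 area. Central neuron region against central root (2509) gave 4355 with K-means and 1271 to 1667 leaving out 1 area. Connective tissue against nerve (325) gave 173 without a minimum and lead, 692 with a lead of 0.3, 984 with K-means and 11 to 416 leaving out 1 area. The injury split (70) gave 188 with DESeq2 size factors, 13 with DESeq2, 223 without the filter and 133 with a lead of 0.3. It gave 144 without the mitochondrial, ribosomal protein and hemoglobin genes, 298 with K-means and 905 at each area's own median. Leaving out TN2 repeats the same fit (70) and is no check, because the fixed cut used only TN1 and TN3.

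Values that turned direction were log2 fold changes that no test had called. For TN against HC these were Ptprz1 in the nerve (-0.32 to 0.019 leaving out 1 area, positive without TN1, and 0.020 in the low-marker spots), Alk in the astrocyte region (-0.47 without TN2 to 0.46 without TN3) and Alk over all spots (-0.043 without TN2 to 0.46 without TN1). In the ganglion interaction they were Ptprz1 (-0.16 without TN1 to 0.30 without TN2), Alk (-0.96 without TN1 to 0.69 without TN2, 0.67 with a lead of 0.3, 0.24 with K-means) and Lrp1 (0.16 with K-means). In the nerve interaction they were Lrp1 (0.038 without the filter, -0.17 without TN1 to 0.16 without TN2, 0.046 without a minimum and lead, 0.017 with K-means) and Ptn (-0.23 without TN1 to 0.012 without TN2, 0.49 with K-means). The others were Alk in connective tissue against nerve (-0.22 with K-means) and Ptn in the injury split (-0.0067 at the own median).

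Regions of 1 area come from 1 animal in TN, so the area was the block in the fits between regions. With no replicate block, the genes called were 2201 for nerve against ganglion, 3813 for central root against ganglion, 2409 for central root against nerve, 1 for astrocyte region, 830 for central neuron region, 0 for connective tissue against nerve and 0 for the injury split. No paired analysis was possible because HC has no number that ties it to 1 TN animal. The comparisons of TN with HC could not be fitted without HC, that of the astrocyte region not with K-means regions, that of the central neuron region not without TN1 or TN2, and the injury split not without TN1 or TN3, at the 90th percentile or with spots of 500 genes and 1000 UMIs. The low-marker spots, the own-median split, the astrocyte region and the nerve interaction were chosen after seeing the data.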

Other observations

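Pituitary spots and blood and bone spots were compared between TN and HC only as part of the sum over all spots. In pituitary spots Mdk was 229 CPM in TN2, 273 in TN3 and 65.4 in HC, and Lrp1 318, 380 and 101 CPM. In blood and bone spots Mdk was 86.9 CPM in TN1, 183 in TN3 and 60.4 in HC, and Lrp1 135, 267 and 103 CPM. In both sets of spots HC was lowest for both genes, with 39 to 417 spots in each blood and bone sum and 31 to 135 in each pituitary sum. Each set rested on 2 TN areas, and the share of all genes with such a pattern was not computed. In the pituitary spots, pituitary markers summed to 1635 CPM (TN2), 2174 (TN3) and 950 (HC). Peripheral myelin markers summed there to 31172, 27004 and 12025 CPM and sensory neuron markers to 3622, 1353 and 4700 CPM. These spots are thus mixtures, named for the list that led in them, and are not shown to be pituitary tissue. Connective tissue markers summed there to 6571, 4335 and 1928 CPM, and macrophage markers to 1393, 2070 and 494 CPM. In blood and bone spots macrophage markers summed to 689 CPM (TN1), 1539 (TN3) and 461 (HC). Connective tissue markers there were 2524, 5676 and 3611 CPM, with HC inside the TN range. The part of these markers was not tested. Ptn in pituitary spots was 852 CPM in TN2, 1081 in TN3 and 500.4 in HC. In blood and bone spots Ptn was 542 CPM in TN1, 741 in TN3 and 550 in HC, so that HC lay inside the TN range there.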
